A study of Homo sapiens with 6 samples.

Results

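The genes described here are the PI5P4K family, PIP4K2A, PIP4K2B and PIP4K2C, and the complex that supplies their substrate lipid, PIKFYVE, FIG4 and VAC14. These 6 genes were taken by symbol from a table of 27914 genes, and all 6 were found. Expression was measured by RNA sequencing as TPM, a level scaled for transcript length and to the same total in each library, in MCF10A cells, a human breast epithelial cell line that is immortalised but does not form tumours. The controls were 3 samples named SCRin with a wild-type genotype. The other 3 samples had the genotype α-/-;βin, and all 6, controls included, had been given doxycycline for 3 days. The labels leave SCR, in, α and β unexplained. The Greek letters were read as the α and β enzymes of the family, PIP4K2A and PIP4K2B, since PI5P4K stands in the title of the series. Whether a line was a single clone is not stated, nor whether replicates are separate cultures, and the p-values below may therefore reflect technical spread alone. No protein or lipid was measured.

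PI5P4Ks are lipid kinases that phosphorylate PI-5-P, a rare phosphoinositide, on its 4-position to give PI-4,5-P2. PI-5-P arises largely downstream of PIKFYVE, a kinase of endosomes that makes PI-3,5-P2 from PI-3-P, and phosphatases of the myotubularin family can then remove the 3-phosphate. VAC14 is the scaffold on which PIKFYVE and FIG4 assemble, and FIG4 is a phosphatase that removes the 5-phosphate from PI-3,5-P2. The series title links PI-5-P to the Hippo pathway, a kinase cascade that restrains growth in epithelia.

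The 3 PI5P4K genes are paralogs, so their coding sequences were compared first to see where reads could be shared. In GENCODE release 29 (GRCh38) the principal coding sequences, without the stop codon, are 1218 bases for PIP4K2A, 1248 for PIP4K2B and 1263 for PIP4K2C. Identity over aligned bases was 75.6% for PIP4K2A and PIP4K2B, 69.6% for PIP4K2A and PIP4K2C, and 70.6% for PIP4K2B and PIP4K2C. The longest run identical in all 3 was 19 bases in the first exon, printed below in capitals with the coding bases around it because it is where the paralogs are hardest to tell apart. The windows are chr10:22714242-22714300 (minus strand) for PIP4K2A, chr17:38799325-38799383 (minus strand) for PIP4K2B and chr12:57591346-57591404 (plus strand) for PIP4K2C, in GRCh38.
PIP4K2A: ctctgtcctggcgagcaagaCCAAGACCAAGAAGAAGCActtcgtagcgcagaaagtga
PIP4K2B: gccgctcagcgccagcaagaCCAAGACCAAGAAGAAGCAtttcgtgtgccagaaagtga
PIP4K2C: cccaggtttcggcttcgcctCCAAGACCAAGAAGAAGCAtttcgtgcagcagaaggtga
The longest run shared by any pair was 26 bases, in this same exon. No stretch of 31 bases in the coding sequence of any of the 6 genes occurred in a GENCODE transcript of another gene, so coding reads that long could be assigned to 1 gene. Which annotation and read length the authors used is not given in the sources here.

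The cells had the markers of basal breast epithelium in both groups. All 5 basal and all 4 general epithelial markers had a mean of at least 1 TPM. The 5 basal markers summed to 885 to 1813 TPM in the controls and 1522 to 1977 TPM in α-/-;βin cells, and all 5 had the higher mean in α-/-;βin cells, with 0 called. KRT5, a basal keratin, measured 576, 590 and 837 TPM in the controls and 841, 1053 and 988 TPM in α-/-;βin cells, and TP63, a basal transcription factor, 18.9, 13.1 and 16.2 against 29.6, 25.96 and 25.1 TPM (limma adjusted p = 0.240 and 0.0664). The groups did not overlap for these 2 genes, as for 17.1% of all tested genes, and did for KRT14, KRT17 and ITGB4. The 4 general epithelial markers summed to 649 to 757 TPM in the controls and 626 to 752 TPM in α-/-;βin cells. Of them only EPCAM, an epithelial adhesion molecule, was called, at a mean of 10.02 TPM in controls and 49.5 TPM in α-/-;βin cells (limma adjusted p = 0.000847). Its groups did not overlap either. Of all tested genes 2.19% were called. The part of these marker differences in the results below was not tested. PTPRC, which marks leukocytes, was listed at 0 in every library, and the summed endothelial markers reached at most 0.213 TPM. CD68, a lysosomal protein on the leukocyte list, measured 35.6 to 44.8 TPM, and COL1A1 was the 1 fibroblast marker with a mean above 1 TPM. Read depth cannot be recovered from TPM, and the counts behind a value are unknown. The test covered the 12096 genes whose mean reached 1 TPM, and all 6 genes were among them.

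Among the kinases, the 2 genes read as targets were lower in α-/-;βin cells. PIP4K2A encodes the α enzyme, the most active of the family, and measured 19.8, 20.2 and 21.7 TPM in control replicates 1 to 3 and 4.09, 4.16 and 4.35 TPM in the α-/-;βin replicates. The groups did not overlap, and the α-/-;βin libraries lay within a range narrower than that of the controls. The mean was 20.6 ± 1.02 TPM in controls and 4.20 ± 0.132 TPM in α-/-;βin cells (SD, n = 3 each), or 20.4% of control. On the log2(TPM + 1) scale PIP4K2A fell by 2.05 (SE 0.10, 95% interval -2.30 to -1.81, limma with Benjamini-Hochberg adjustment over all tested genes, adjusted p = 0.000847). Ordered by log2 change from the lowest, it was number 39 of the 12096 genes. Transcripts assigned to this gene were thus measured in each library of the genotype written α-/-, and a gene-level TPM does not show which exons they covered.

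PIP4K2B encodes the β enzyme, which is found in the nucleus as well as the cytoplasm. It measured 20.8, 23.1 and 21.4 TPM in the controls and 8.20, 8.69 and 11.6 TPM in the α-/-;βin libraries. The groups did not overlap, with α-/-;βin replicate 3 the highest of its group. The means were 21.8 ± 1.21 and 9.49 ± 1.83 TPM (SD, n = 3 each), or 43.6% of control. PIP4K2B fell by 1.13 on the log2(TPM + 1) scale (SE 0.14, 95% interval -1.47 to -0.79, limma adjusted p = 0.00985). Without control replicate 3 the limma adjusted p was 0.0602 at a log2 change of -1.14, and over the 15 alternatives it ranged from 0.00609 to 0.0602.

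PIP4K2C encodes the γ enzyme, which has very low catalytic activity in vitro. It measured 45.9, 37.4 and 45.9 TPM in the controls and 39.9, 28.6 and 33.4 TPM in the α-/-;βin libraries. Here the groups overlapped, since control replicate 2 lay below α-/-;βin replicate 1. The means were 43.1 ± 4.94 and 34.0 ± 5.70 TPM (SD, n = 3 each). The log2 change of -0.34 did not pass the test (95% interval -0.69 to 0.01, limma adjusted p = 0.438). Its interval reaches from a level 1.61-fold lower to one about equal to the controls, so the main fit shows no rise of PIP4K2C beyond the upper bound of 0.01. Some alternatives loosen that bound. With scaling by median ratios the log2 change was -0.31 with an SE of 0.17, beside 0.15 in the main fit. The exact two-sided permutation test of TPM gave p = 0.1 for PIP4K2A and for PIP4K2B, the smallest that 3 samples against 3 allow, and p = 0.2 for PIP4K2C.

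**Figure D1:**
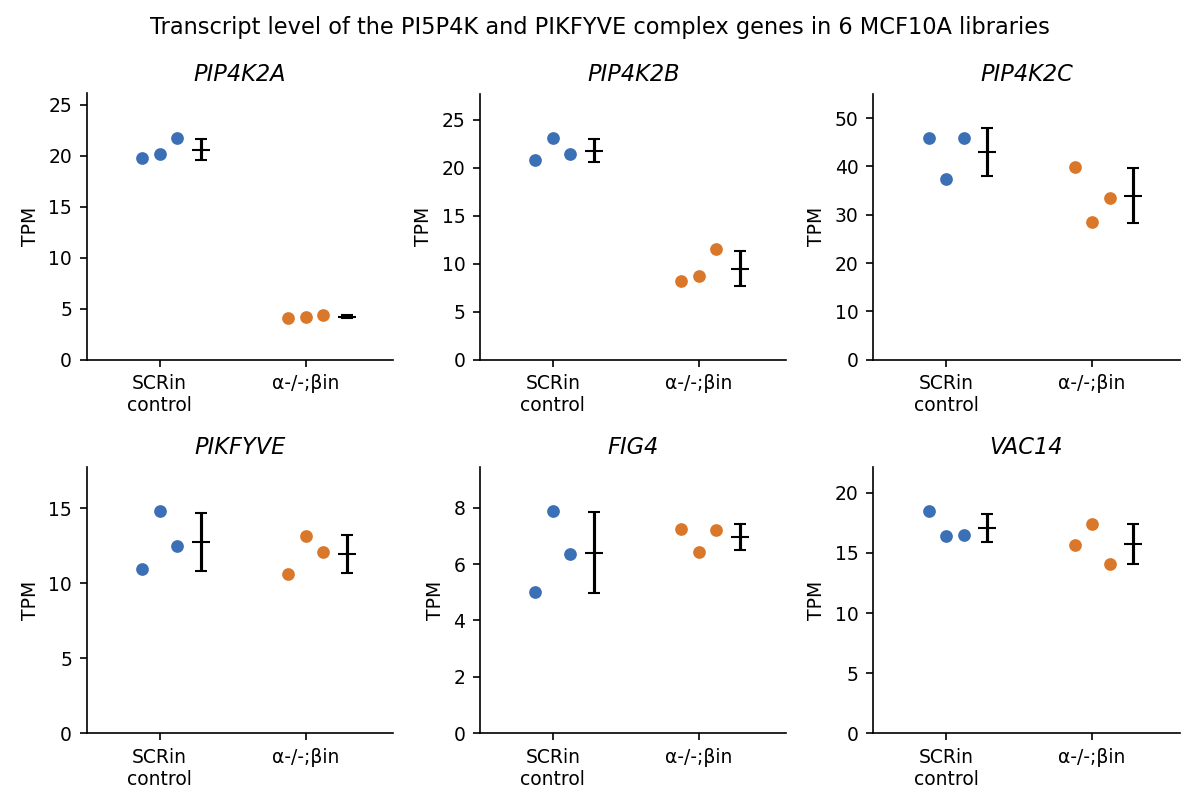
TPM of each of the 6 genes (vertical axis, from 0) in the 3 SCRin control libraries (blue) and the 3 α-/-;βin libraries (orange), with replicates 1 to 3 from left to right and the mean and SD in black. The groups are apart for PIP4K2A (19.8 to 21.7 against 4.09 to 4.35 TPM) and PIP4K2B (20.8 to 23.1 against 8.20 to 11.6 TPM), and overlap for the other 4 genes.

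The makeup of the family's transcripts differed accordingly. The 3 PI5P4K genes summed to 86.5, 80.6 and 89.1 TPM in control replicates 1 to 3 and to 52.2, 41.4 and 49.3 TPM in the α-/-;βin libraries, so that the α-/-;βin mean was 55.8% of control. PIP4K2C made up 53.1%, 46.3% and 51.6% of that sum in the controls and 76.5%, 69.0% and 67.7% in the α-/-;βin libraries. It was thus the most abundant family transcript in every library of either group, by a wider margin in α-/-;βin cells. PIP4K2A made up 24.1% ± 1.09 of the sum in controls and 8.90% ± 1.10 in α-/-;βin cells, and PIP4K2B 25.6% ± 2.67 and 20.04% ± 3.97 (SD, n = 3 each). These shares follow from the falls of PIP4K2A and PIP4K2B and are given as a description.

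**Figure D2:**
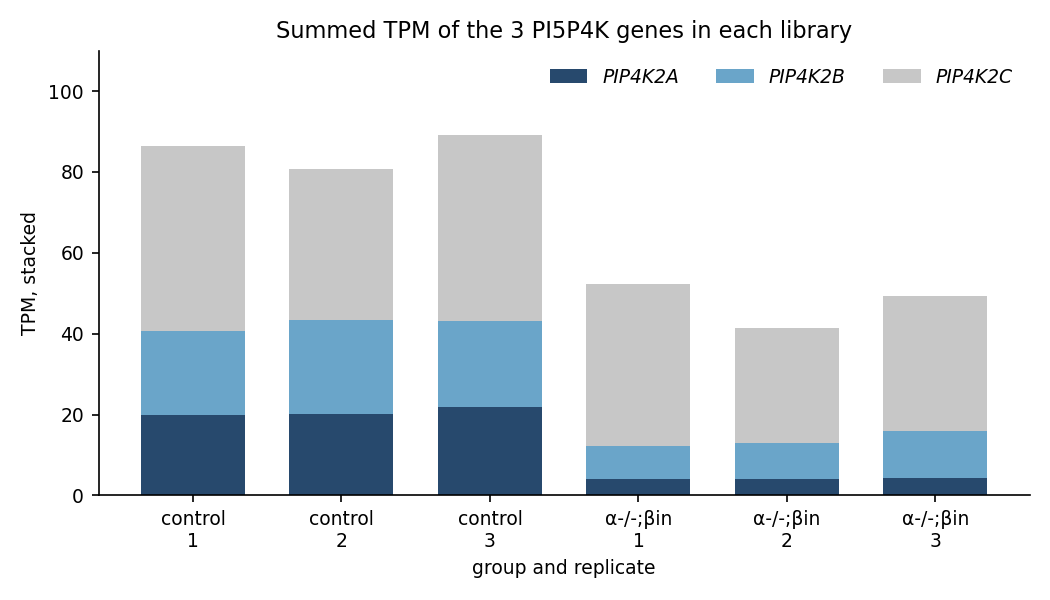
Stacked TPM of PIP4K2A (dark blue), PIP4K2B (light blue) and PIP4K2C (grey) in each of the 6 libraries, labelled by group and replicate. The stacks reach 80.6 to 89.1 TPM in controls and 41.4 to 52.2 TPM in α-/-;βin cells, and most of the difference lies in the 2 blue segments.

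Whether the kinase genes differed from each other in how far they moved was compared through ratios within each library. The log2 ratio of PIP4K2A to PIP4K2B, both as TPM + 1, was -0.07, -0.19 and 0.02 in the controls and -0.85, -0.91 and -1.23 in the α-/-;βin libraries. In the controls the levels were thus close to equal, and in every α-/-;βin library PIP4K2A was the lower gene. The mean difference of the ratio was -0.92 (exact two-sided permutation p = 0.1, the smallest possible, and adjusted p = 0.1 over the 3 ratios computed). The other two ratios, PIP4K2A to PIP4K2C and PIP4K2B to PIP4K2C, differed by -1.71 and -0.79, again with groups that did not overlap and an exact permutation p = 0.1 for each. The exact permutation test cannot give less than this with 3 samples against 3.

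The genes of the PI-5-P supply complex did not pass the test. PIKFYVE, the kinase, measured 10.95, 14.8 and 12.5 TPM in the controls and 10.6, 13.1 and 12.1 TPM in the α-/-;βin libraries. The groups overlapped, and within each group replicate 2 was the highest and replicate 1 the lowest. The means were 12.8 ± 1.94 and 11.95 ± 1.27 TPM (SD, n = 3 each), with a log2 change of -0.08 (95% interval -0.42 to 0.25, limma adjusted p = 0.903).

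VAC14, the scaffold, was the most abundant transcript of the complex. It measured 18.5, 16.4 and 16.5 TPM in the controls and 15.7, 17.4 and 14.1 TPM in the α-/-;βin libraries, with overlapping groups. The means were 17.1 ± 1.17 and 15.7 ± 1.66 TPM (SD, n = 3 each), and the log2 change was -0.12 (95% interval -0.39 to 0.15, limma adjusted p = 0.787). FIG4, the phosphatase, was the least abundant of the complex. It measured 5.005, 7.87 and 6.34 TPM in the controls, which enclosed the 7.25, 6.41 and 7.21 TPM of the α-/-;βin libraries. The means were 6.41 ± 1.43 and 6.96 ± 0.475 TPM (SD, n = 3 each), with a log2 change of 0.12 (95% interval -0.28 to 0.52, limma adjusted p = 0.869). The exact permutation p was 0.6 for PIKFYVE, 0.4 for VAC14 and 0.6 for FIG4. The lower bounds of these intervals, -0.42 for PIKFYVE, -0.39 for VAC14 and -0.28 for FIG4, lie above the whole interval of PIP4K2B, and smaller changes in either direction could have been missed.

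Thus 2 of the 6 genes were called lower and 0 higher, against 2.19% of all tested genes called in either direction and 1.83% called lower. Groups that did not overlap were found for the same 2 genes of the 6, and for 17.1% of all tested genes. PIP4K2A and PIP4K2B are the genes the labels were read to name, so their calls check the labels.

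TPM is scaled for transcript length, so levels can be set in order across genes. In the controls the order was PIP4K2C, PIP4K2B, PIP4K2A, VAC14, PIKFYVE and FIG4. PIP4K2C stood 1.98-fold above PIP4K2B, and the ranges over libraries of PIP4K2B and PIP4K2A overlapped, so that pair was not ordered beyond its spread. The other neighbours in the order did not overlap. In α-/-;βin cells the order was PIP4K2C, VAC14, PIKFYVE, PIP4K2B, FIG4 and PIP4K2A, where only PIKFYVE and PIP4K2B overlapped. PIP4K2A had moved from the third place to the last, below FIG4. In controls PIP4K2A, PIP4K2B and VAC14 lay near the middle of the tested genes, above 52.1%, 53.6% and 46.7% of them, while PIP4K2C lay above 72.2% and FIG4 above 23.9%.

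The spread between replicates also differed among the genes. As a percentage of the mean, the SD of PIP4K2A was 4.98% in controls and 3.14% in α-/-;βin cells, and that of PIP4K2B 5.54% and 19.2%. FIG4 was the most variable of the 6 in the controls, at 22.4%, and PIKFYVE followed at 15.2%. The SE of the log2 change was accordingly 0.17 for FIG4 and 0.10 for PIP4K2A.

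To see whether these differences ran along the chromosome, each gene was set beside its neighbours. Of the 10 tested genes nearest PIP4K2A in the RefSeq order of chromosome 10, 0 were called, and their median log2 change was 0.03 (range -0.46 to 0.27). Its nearest tested neighbours were BMI1, a Polycomb protein, at 0.15 and MSRB2, a mitochondrial methionine sulfoxide reductase, at -0.46 (limma adjusted p = 0.759 and 0.342). None of these 10 genes thus fell as far as PIP4K2A, and smaller falls among them could have been missed.

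PIP4K2B on chromosome 17 also lay below its 10 neighbours, of which 0 were called, with a median of 0.14 and a lowest value of -0.28. PSMB3, a proteasome subunit, and CWC25, a splicing factor, lay next to it with log2 changes of 0.06 and 0.18. The highest value around it, 2.00, belonged to SNORA21, a small nucleolar RNA gene picked out after the values were known, listed at 0 in all controls and above 0 in α-/-;βin replicate 3 alone (limma adjusted p = 0.700). Around PIP4K2C on chromosome 12 the median was 0.01, with DCTN2, a dynactin subunit, at -0.09 and B4GALNT1, a ganglioside synthase, at 0.22. For the complex, 0 of 10 neighbours were called at each of PIKFYVE on chromosome 2 (IDH1 at -0.21 and MAP2 at -0.71), FIG4 on chromosome 6 (AK9 at 0.01 and WASF1 at 0.18) and VAC14 on chromosome 16 (MTSS1L at -0.10 and CMTR2 at -0.17). No gene that overlaps one of the 6 in RefSeq had a value above 0 in the table. VAC14-AS1 was listed at 0 in every library, and the others have no row.

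**Figure D3:**
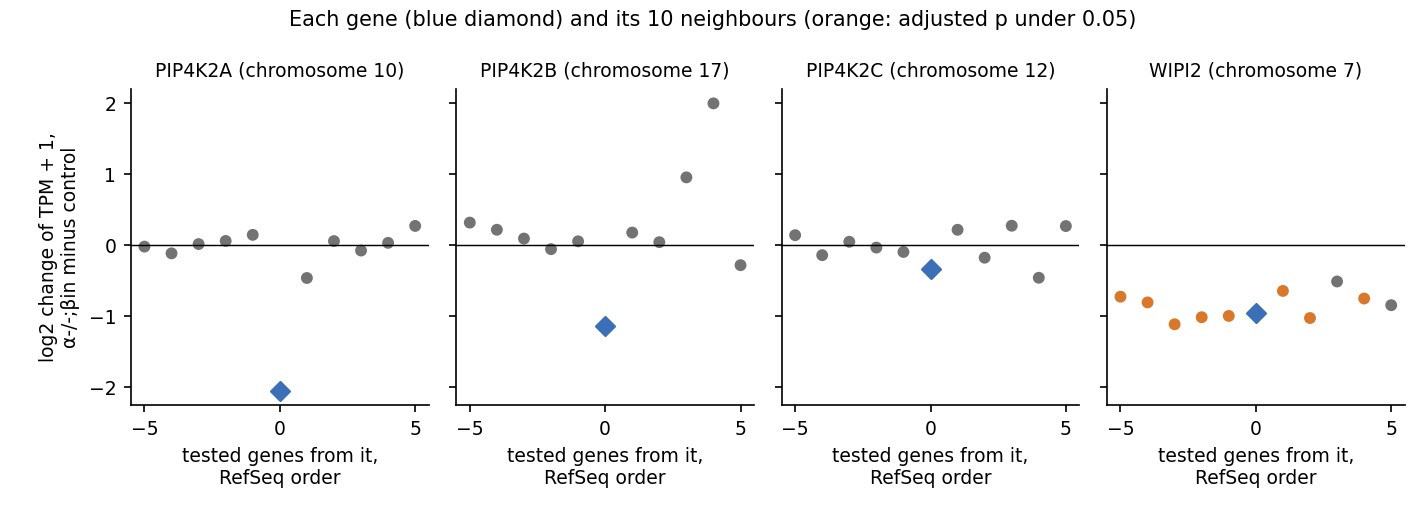
Log2 change of TPM + 1 (vertical axis, α-/-;βin minus control) for PIP4K2A, PIP4K2B, PIP4K2C and WIPI2 (blue diamonds) and for the 5 tested genes on each side of each (circles, orange where the limma adjusted p was under 0.05), by position in the gene order. PIP4K2A and PIP4K2B lie below neighbours of which 0 of 10 were called, while WIPI2 lies among neighbours of which 8 of 10 were called lower.

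Genes that act around PI-5-P gave 1 call. Of 34 listed genes, 30 were tested, of which 1 was called lower and 0 higher (1.83% and 0.364% of all tested genes). Their median log2 change was -0.06, beside -0.01 over all tested genes. In 8 of the 30 the groups did not overlap, all of them lower in α-/-;βin cells, against 11.4% of all tested genes not overlapping and lower. The list holds no gene of the 6.

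The enzymes on either side of PI-5-P did not pass. Of 7 tested myotubularin phosphatases 0 were called (median log2 change -0.07). MTMR2, their most abundant member, measured 56.9 ± 3.87 and 54.3 ± 5.03 TPM in control and α-/-;βin cells (SD, n = 3 each). MTMR1, picked out after the values were known, was at 30.5, 29.7 and 29.9 TPM in the controls and 22.5, 23.6 and 23.8 TPM in α-/-;βin cells. Those groups did not overlap, but the log2 change of -0.35 missed the threshold (limma adjusted p = 0.105). Of 6 catalytically inactive myotubularins 0 were called, with SBF1 at 20.2 ± 1.53 and 21.9 ± 2.32 TPM.

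The genes listed for the supply of PI-3-P, the substrate of PIKFYVE, gave 0 calls among 3 tested. PIK3C2A measured 32.8 ± 4.39 and 30.4 ± 4.56 TPM. PIP4P1 and PIP4P2, phosphatases that can make PI-5-P from PI-4,5-P2, had log2 changes of -0.26 and -0.06 (limma adjusted p = 0.447 and 0.919), and both are given because they are the whole of their group. The kinases that make PI-4,5-P2 from PI-4-P, the larger source of that lipid in cells, gave 0 calls among 2 tested. PIP5K1A measured 75.8 ± 5.17 and 68.9 ± 1.35 TPM (SD, n = 3 each).

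Of 5 genes listed as encoding PI-5-P binding proteins, 0 were called. MOB1A, an adaptor of the Hippo kinases and the most abundant of them, measured 107, 105 and 102 TPM in the controls and 101, 107 and 107 TPM in α-/-;βin cells, a log2 change of 0.00 (95% interval -0.18 to 0.18). MOB1B, its paralog and picked out after the values were known, was at 26.1, 26.6 and 25.0 TPM in the controls and 21.5, 20.3 and 20.1 TPM in α-/-;βin cells. These groups did not overlap, and the log2 change of -0.32 missed the threshold (limma adjusted p = 0.183).

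The 1 call was WIPI2, among 5 genes for effectors of PI-3,5-P2 and related lipids. WIPI2 encodes a protein that binds PI-3-P and PI-3,5-P2 and acts early in autophagy. It measured 46.2, 38.3 and 38.4 TPM in the controls and 22.8, 19.7 and 19.6 TPM in α-/-;βin cells, with no overlap. It fell by 0.95 on the log2(TPM + 1) scale (SE 0.12, limma adjusted p = 0.00869). Without α-/-;βin replicate 3 the limma adjusted p was 0.0549, and over the alternatives it ranged from 0.00176 to 0.0549. On chromosome 7, 10 of the 10 tested neighbours of WIPI2 had a log2 change below 0 and 8 were called lower (median -0.82), while 0 of the neighbours of the 6 genes were called. What part a change along this chromosome had in the fall of WIPI2 was not tested.

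WIPI1 on chromosome 17, a relative of WIPI2 picked out after the values were known, was at 13.9, 13.6 and 19.7 TPM in the controls and 7.23, 8.12 and 10.7 TPM in α-/-;βin cells. The groups did not overlap, and the log2 change of -0.79 did not pass (SE 0.19, limma adjusted p = 0.120). MCOLN1, a lysosomal cation channel opened by PI-3,5-P2, likewise had groups that did not overlap, at 11.3, 14.4 and 14.9 against 10.4, 9.74 and 9.19 TPM (log2 change -0.42, limma adjusted p = 0.261). The channels TPCN1 and TPCN2 had log2 changes of -0.11 and 0.03. MCOLN1, TPCN1 and TPCN2 were added so that every effector on the list is given.

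**Figure D4:**
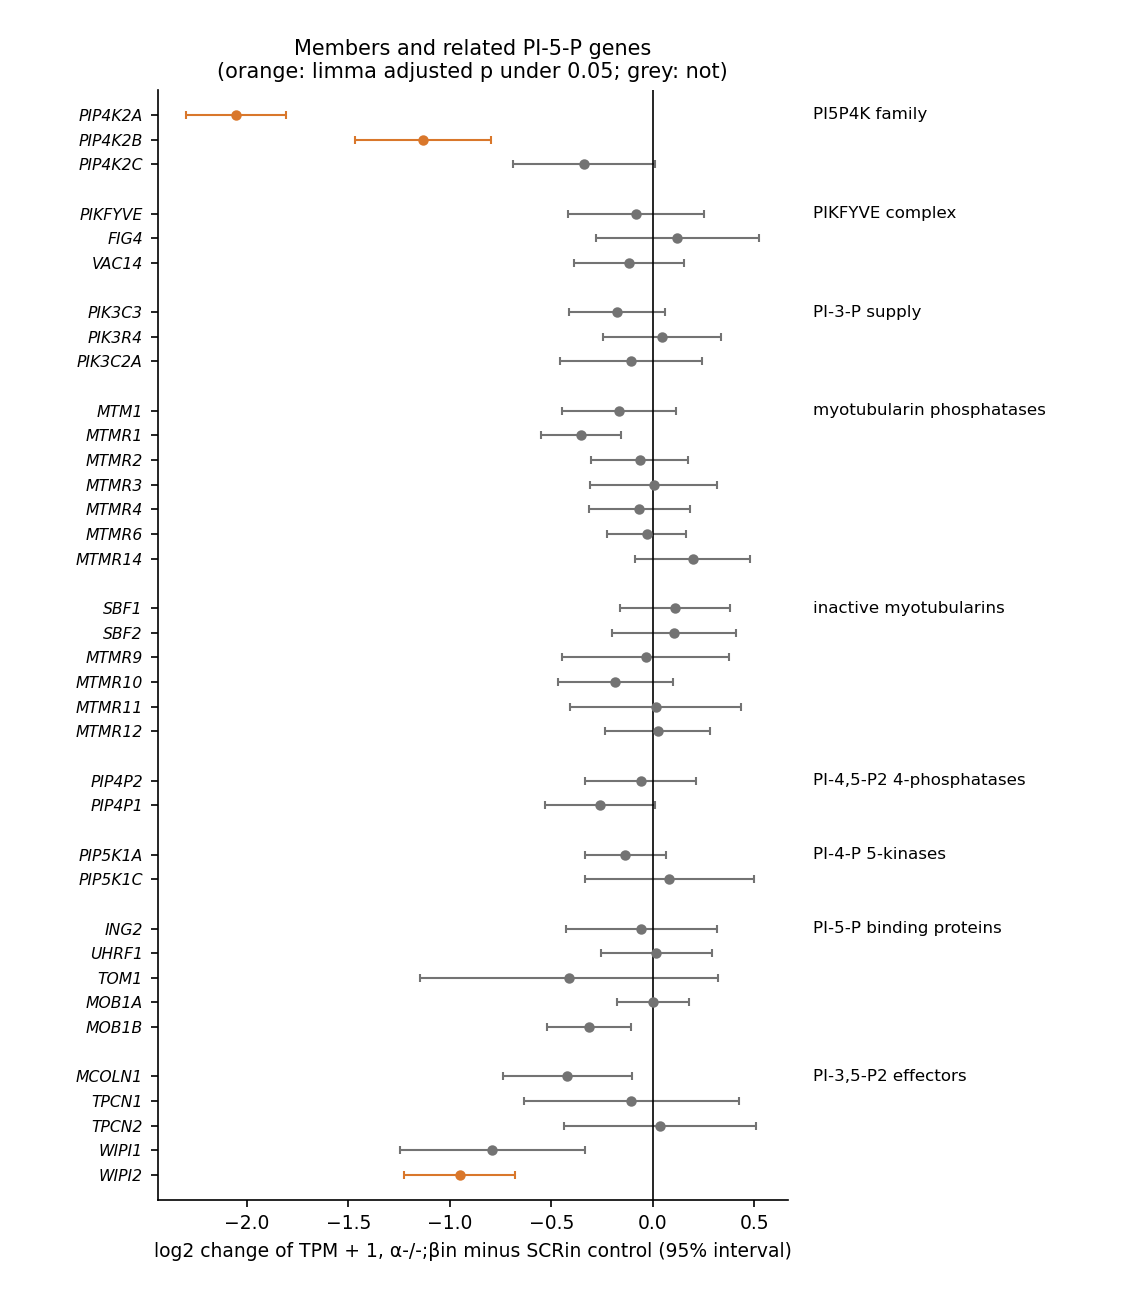
Log2 change of TPM + 1 (horizontal axis, α-/-;βin minus SCRin control) with its 95% interval for the 6 genes and the 30 tested related genes, grouped by role and coloured orange where the limma adjusted p was under 0.05. PIP4K2A at -2.05, PIP4K2B at -1.13 and WIPI2 at -0.95 are the 3 coloured genes.

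The genes whose levels ran most like each of the 6 over the 6 libraries were listed by Pearson correlation of log2(TPM + 1) among 9496 candidates, as a description, since the libraries fall into 2 groups and share their scaling. Picking the highest r of 9496 candidates over only 6 libraries also yields high values by itself. For PIP4K2A they were SCRN1 on chromosome 7, from 134 ± 4.90 to 37.7 ± 2.07 TPM, and ZCCHC9 on chromosome 5, from 38.0 ± 0.382 to 17.8 ± 0.349 TPM, both with r of at least 0.998. For PIP4K2B they were BTD, the biotinidase gene on chromosome 3, and DRAP1, a transcriptional corepressor on chromosome 11. BTD went from 12.2 ± 0.358 to 6.71 ± 0.663 TPM (r = 0.997) and DRAP1 from 251 ± 8.55 to 185 ± 12.3 TPM (r = 0.994). For PIP4K2C they were SERP1 and CHST15 (r = 0.998 and 0.993), for PIKFYVE R3HDM2 and RIDA (r = 0.999 and 0.996), for FIG4 CHST14 and B3GAT3 (r = 0.981 for each), and for VAC14 ETAA1 and TMEM241 (r = 0.975 and 0.974). Among the 6 genes themselves r was 0.972 for PIP4K2A and PIP4K2B, which share the difference between the groups. PIP4K2C had r = 0.71 with PIP4K2A and 0.63 with PIP4K2B. Within the complex r was 0.48 for PIKFYVE and FIG4, -0.01 for PIKFYVE and VAC14, and -0.72 for FIG4 and VAC14. SCRN1 lies on the same chromosome as WIPI2, of whose 10 neighbours 8 were called lower. The neighbours of SCRN1 and BTD were not compared, and what part changes along chromosomes had in their correlations was not tested.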

How the data were processed

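The authors deposited 1 table of TPM per gene for the 6 libraries, and each column sums to 1000000. Per the submitters' processing notes the build was hg19, and DESeq2 was among the tools. How reads were aligned, quantified and filtered, with which annotation, and whether strand was kept, is not given in the sources here. Columns were matched to samples by name and replicate number, and those headed as the experiment were taken as the α-/-;βin samples.

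The fit used log2(TPM + 1), a scale that understates changes of low genes, for genes whose mean reached 1 TPM, in limma 3.58.1 in R 4.3.3 (mean-variance trend, two-sided, Benjamini-Hochberg over 12096 genes, threshold 0.05). On simulated data for this comparison over 12096 genes, 71.0% of changed genes were called at a log2 change of 1 and 91.0% at 2, with 4.71% of calls false. The simulation drew noise independently for each gene and library and changed 200 genes, as many up as down. In the data 221 genes were called lower and 44 higher, and the share of false calls there may differ. Single values were compared by an exact permutation test over samples (scipy 1.17.1). RefSeq (GRCh38.p14), which placed 11975 of the tested genes, gave only chromosomes and gene order. GENCODE gave the coding sequences, compared with Biopython 1.88. Symbols TMEM55A and TMEM55B were matched to PIP4P2 and PIP4P1 through RefSeq synonyms.

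The genes and lists were chosen with earlier results of these data known. Named genes were the 6 members, the most abundant and the called genes of each related group, the nearest tested gene on each side of a member and the 2 most correlated genes of at least 5 TPM per member. Cell type markers, overlapping genes and some further related genes are named outside this rule. Alternatives changed the scaling, the pseudocount, the filter, the moderation, the replicate block and the libraries used.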

Additional observations from a re-analysis of the deposited data

How the results depend on the processing

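PIP4K2A stayed past the threshold under all 15 alternatives (log2 change -2.26 to -2.01, limma adjusted p 0.000391 to 0.0125). PIP4K2B stayed past it under 14 of 15, with -1.27 to -1.04 when single libraries were left out, and missed it without control replicate 3 (-1.14). PIP4K2C and VAC14 stayed below 0 and uncalled under all 15 (-0.46 to -0.22 and -0.19 to -0.04), and the limma adjusted p of PIP4K2C ranged from 0.0545 to 0.779. PIKFYVE and FIG4, uncalled throughout, changed sign with 1 library left out each: PIKFYVE ranged from -0.18 to 0.02 and was at 0.0224 without control replicate 2, and FIG4 ranged from -0.02 to 0.26 and was at -0.0216 without control replicate 1. The difference in the log2 ratio of PIP4K2A to PIP4K2B ranged from -1.06 to -0.80, and that in the share of PIP4K2C from 18.0 to 22.4 percentage points. With single libraries left out, 106 to 219 genes were called, against 265 in all, and 0 to 1 genes of the related list. With the replicate number as a block, 881 genes were called and 3 of the related list, WIPI2 with MTMR1 and WIPI1. The block changed no call of the 6 genes, but it brought PIP4K2C close to the threshold. Its limma adjusted p was 0.0545 with the block (SE 0.07) and 0.438 without it (SE 0.15). The labels only number the replicates, and the main fit did not pair samples by number. Deviations from the group means correlated at 0.246, 0.269 and -0.015 for numbers 1 to 3. Control 2 with α-/-;βin 1 gave -0.293 and control 1 with α-/-;βin 2 gave -0.238. Other unequal numbers gave -0.0356 to 0.0526. Numbers 1 and 2 thus gave positive values within a number, and number 3 did not. The deviations of a gene sum to 0 within each group. The negative values across numbers therefore follow in part from the positive ones and are no separate evidence. Whether samples of the same number share a batch was not tested. Scaling by median ratios, which divides each library by its own factor, moved the median over all genes from -0.01 to 0.02. That move follows from the factors. Why the other alternatives shifted the values was not tested. Read depth is unknown, so the precision rests on the 3 libraries per group.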
